A study of Mus musculus with 6 samples.

Results

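The genes of cholesterol and fatty acid synthesis were followed in mouse bone marrow-derived macrophages that had been left unstimulated or polarized in opposite directions. They were 31 genes chosen by name: 16 enzymes that turn acetyl-CoA units into cholesterol, 6 genes that sense or move sterols, and 9 enzymes that make, lengthen or desaturate fatty acids. All 31 names were among the 27361 gene names on the arrays, and all 31 were among the 19044 genes tested, a gene being tested when its brightest probe clearly exceeded background on 2 or more of the 6 arrays. Scd1 alone was not well above background on every array.

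RNA of C57BL/6 macrophages was hybridised to 6 one-colour Agilent arrays, 1 for each genotype and state. Control cells (WT) carried FoxO1 Fl/Fl alleles without Cre, and knockout cells (KO) were LysMcre FoxO1 Fl/Fl, where a recombinase expressed from the lysozyme gene of myeloid cells removes the floxed FoxO1 transcription factor gene. All marrow cells grew for 7 days in 10% medium conditioned by L929 cells, a usual source of macrophage growth factor. M0 cells then had no addition, while interferon-gamma at 20 ng/ml and lipopolysaccharide (LPS) at 100 ng/ml made M1 cells over 24 hours, and IL-4 and IL-13, each at 10 ng/ml, made M2 cells over the same time. Only KO cells carry Cre, so loss of FoxO1 and presence of the recombinase cannot be told apart. Whether different mice gave the 6 RNAs is not stated in the labels.

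Animal cells make cholesterol from acetyl-CoA by way of mevalonate, isoprenoids, squalene and lanosterol. The sterol regulatory element binding proteins, encoded by Srebf1 and Srebf2, switch on most enzymes of this route and of fatty acid synthesis: Scap escorts them to the Golgi for cleavage when membranes are short of sterol, and the Insig proteins hold Scap back when sterol is plentiful. In macrophages the same lipids supply membrane for phagocytosis and for secretion, and the balance of synthesis, uptake and efflux is known to shift with inflammatory stimuli.

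Values are log2 levels: the log2 of the processed signal minus the 75th percentile of its array, which lay between 531.6 and 628.2 signal units. A difference of 1 is 2-fold, and levels of different genes are not compared because each rests on its own probe. Between 62.8% and 67.7% of probes were well above background and 0 spots were saturated. Foxo1 had log2 levels of 1.5, 0.96 and 1.5 in WT M0, M1 and M2 and of -1.42, -1.81 and -1.16 in KO, so that every KO array lay below every WT array. All 8 macrophage markers were well above background on all 6 arrays. Liver genes stood out on 1 array: 18 of 18 were well above background in WT M0, with a log2 level of 3.49 for albumin, against 5 to 9 on 4 other arrays and 15 in KO M1, where albumin was at -2.36. Their summed log2 level was 6.17 in WT M0 and 1.72 to 5.30 elsewhere, and Trf alone was at 5.10 and at 1.25 to 5.27. Their median log2 level was -0.01 in WT M0 and -7.44 to -4.22 elsewhere. Because sterol and fatty acid enzymes are also made in liver, differences from M0 are given for each genotype. In a bulk sample, fewer cells of a type and less RNA per cell cannot be told apart.

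The promoters of 24 of the 31 genes had entries in the RefSeq table of GRCm38.p6. Fdps, Fdft1, Sqle, Stard4, Scd1, Scd2 and Fads1 had none. The 250 bases before the start are shown for 3 sterol enzymes that were clearly lower in M1 than in M2 (Hmgcs1, Idi1, Dhcr7), for the central fatty acid enzyme Fasn, and for Acat2, a sterol enzyme that was not. Capitals mark CCAAT, the box bound by the factor NF-Y, or its complement ATTGG, and in Hmgcs1 also the sterol regulatory element core TCACNCCAC. They are, in turn, chr13:119690101-119690350 (plus strand), chr13:8885356-8885605 (plus), chr7:143829964-143830213 (plus, 1 of 3 windows of this gene), chr11:120824548-120824797 (minus) and chr17:12960726-12960975 (minus). Where a gene had more than 1 window, as Dhcr7 did, a window holding the marked letters was taken first.
Hmgcs1: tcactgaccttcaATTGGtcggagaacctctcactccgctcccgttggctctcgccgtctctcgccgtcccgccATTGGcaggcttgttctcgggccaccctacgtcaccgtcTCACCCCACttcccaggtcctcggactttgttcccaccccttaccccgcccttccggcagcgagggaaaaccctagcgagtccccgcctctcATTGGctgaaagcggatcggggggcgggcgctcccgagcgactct
Idi1: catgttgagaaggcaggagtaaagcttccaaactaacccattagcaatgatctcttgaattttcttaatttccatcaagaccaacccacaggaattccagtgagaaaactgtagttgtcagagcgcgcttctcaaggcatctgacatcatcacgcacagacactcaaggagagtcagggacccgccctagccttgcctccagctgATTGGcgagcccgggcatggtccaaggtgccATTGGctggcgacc
Dhcr7: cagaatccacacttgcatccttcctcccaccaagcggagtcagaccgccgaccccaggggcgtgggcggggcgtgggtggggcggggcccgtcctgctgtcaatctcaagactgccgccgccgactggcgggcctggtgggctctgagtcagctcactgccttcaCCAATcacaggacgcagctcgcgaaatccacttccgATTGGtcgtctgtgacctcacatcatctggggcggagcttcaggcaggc
Fasn: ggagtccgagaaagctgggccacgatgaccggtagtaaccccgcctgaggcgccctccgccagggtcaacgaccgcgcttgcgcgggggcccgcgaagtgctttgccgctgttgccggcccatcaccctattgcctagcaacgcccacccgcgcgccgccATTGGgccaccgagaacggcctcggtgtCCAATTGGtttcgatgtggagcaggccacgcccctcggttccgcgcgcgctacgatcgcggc
Acat2: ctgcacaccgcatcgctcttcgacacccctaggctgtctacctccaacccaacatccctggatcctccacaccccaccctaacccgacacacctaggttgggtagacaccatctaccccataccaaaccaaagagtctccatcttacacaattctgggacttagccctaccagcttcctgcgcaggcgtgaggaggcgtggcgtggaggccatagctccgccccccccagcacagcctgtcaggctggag
CCAAT on either strand was present in 33.8% of all 32851 promoter windows and in a window of 37.5% of the 27025 genes in the table. Of the 13 sterol enzymes with an entry, 12 had it in a window, and Acat2 was the exception. Those with it include Mvk, Pmvk, Tm7sf2, Nsdhl and Ebp, which did not pass the test of M1 against M2 given below. It was present for 4 of 5 sensing and transport genes with an entry and for 2 of 6 fatty acid enzymes, Fasn and Elovl5. In Fasn a CCAAT and an ATTGG overlap, so its 3 matches lie at 2 places. TCACNCCAC, found in 1.05% of all windows and for 1.22% of genes, occurred among these 24 genes in Hmgcs1 only, 137 bases before the start. CACGTG, in 6.02% of all windows and for 6.86% of genes, occurred in Hsd17b7, Dhcr7, Scap, Insig1 and Elovl5. A match describes these letters and does not show that a factor binds there.

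The first question was how the pathway differs between the inflammatory and the IL-4 state. Most of it was lower in M1 than in M2, from the second enzyme of cholesterol synthesis to the last and at several steps of fatty acid synthesis. With an additive model of state and genotype fitted across all genes (limma, Benjamini-Hochberg adjusted p under 0.05), 17 of 31 genes were lower in M1 and 0 were higher, against 13.6% and 11.7% of all genes tested. They were 10 of 16 sterol enzymes, 3 of 6 sensing and transport genes and 4 of 9 fatty acid enzymes. A size rule that needs no test gave a like picture: 14 of 31 were at least 2-fold lower in M1 in both genotypes, against 10.3% of all genes, and 22 of 31 were at least 1.5-fold lower, against 18.2%. The members were chosen with earlier results of these data known, so these shares only describe the list.

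Among the mevalonate enzymes, Hmgcs1, which condenses acetyl-CoA units into HMG-CoA, had log2 levels of 2.62, 2.09 and 3.69 in WT M0, M1 and M2 and of 2.78, 2.00 and 3.55 in KO. Both M1 arrays were lowest and both M2 arrays highest, with no overlap between states. The mean difference of M1 from M2 was -1.57 ± 0.17 (log2, SE, 2 arrays a state; limma adjusted p = 0.0116). Its other 2 probes were lower in M1 too, by -1.13 and -1.07 in WT and -1.35 and -1.51 in KO.

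Idi1, the isomerase that makes the reactive isoprenoid unit, showed the widest gap of any sterol enzyme. Its log2 levels were -0.48, -0.96 and 1.58 in WT M0, M1 and M2 and -0.16, -1.77 and 1.12 in KO. Each M2 array lay above every other array, and each M1 array below. The difference of M1 from M2 was -2.54 in WT and -2.90 in KO (mean -2.72 ± 0.33, SE; limma adjusted p = 0.0145). Mvd, which decarboxylates mevalonate diphosphate, passed more narrowly, with log2 levels of -1.05, -0.64 and 0.49 in WT and -0.82, -1.36 and 0.13 in KO (M1 minus M2 -1.31 ± 0.29, SE; limma adjusted p = 0.0459). Its M2 arrays were highest, while its WT M1 array lay above both M0 arrays. Fdps, which builds farnesyl diphosphate, was at -0.67, -0.94 and 0.65 in WT and -0.59, -1.28 and 0.23 in KO (log2 levels; M1 minus M2 -1.55 ± 0.20, SE; limma adjusted p = 0.0165). The kinases Mvk and Pmvk did not pass, with M1 minus M2 of -0.44 and -0.40 in WT and -0.41 and -0.12 in KO. Acat2, the thiolase at the start of the route, was the sterol enzyme with a higher M1 than M2 level in both genotypes, by 0.12 in WT and 0.41 in KO, and it did not pass either.

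**Figure D1:**
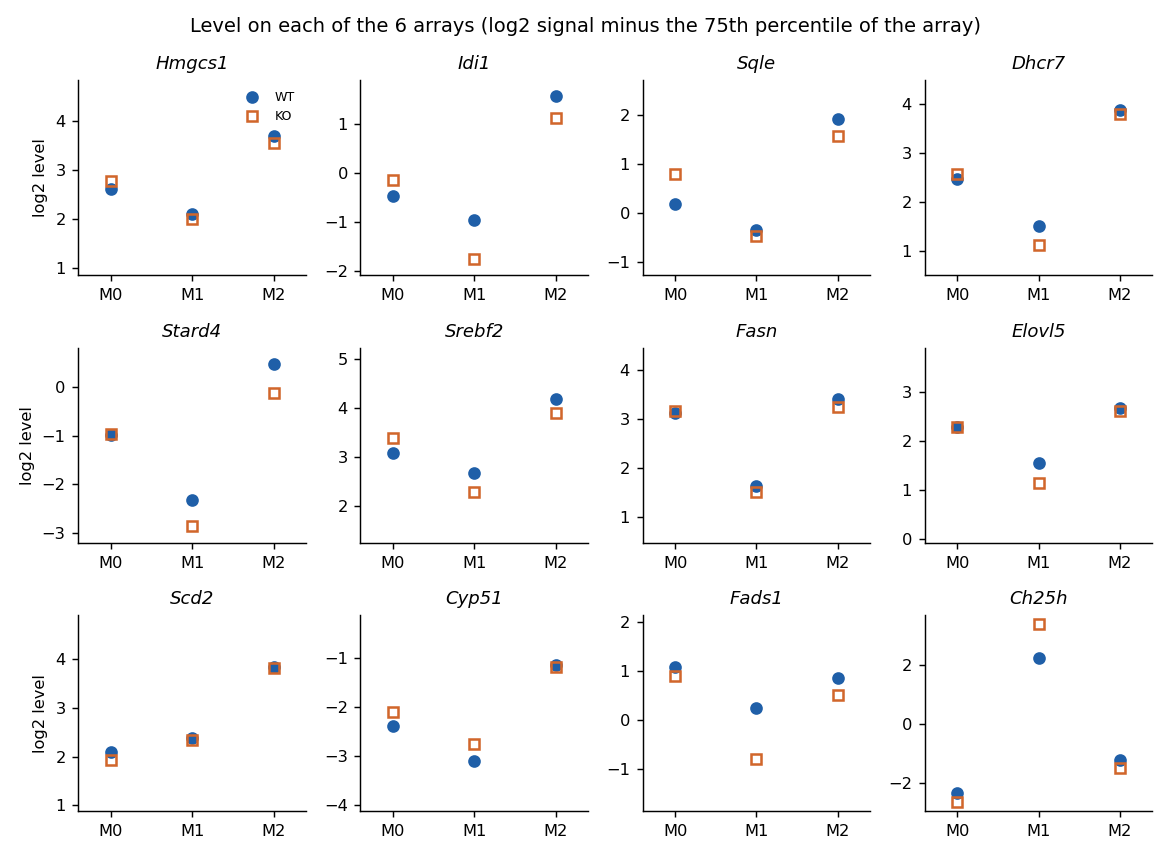
Log2 level (log2 signal minus the 75th percentile of the array) of 12 genes in M0, M1 and M2, with 1 point per array (filled circles WT, open squares KO) and no error bars because each genotype and state has 1 array. By the probe used, in both genotypes Hmgcs1, Idi1, Sqle, Dhcr7, Cyp51, Stard4 and Srebf2 are lowest in M1 and highest in M2. Fasn, Elovl5 and Fads1 are lowest in M1 in both, Scd2 is highest in M2, and Ch25h is highest in M1.

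Among squalene and sterol ring enzymes, by the probe used, Sqle, Lss, Cyp51 and Dhcr7 were lowest in M1 and highest in M2 in both genotypes. Sqle, the squalene epoxidase that commits squalene to sterols, had log2 levels of 0.18, -0.36 and 1.92 in WT M0, M1 and M2 and of 0.79, -0.49 and 1.57 in KO. The M1 arrays were lowest and the M2 arrays highest, and the KO M0 array lay between. M1 minus M2 was -2.29 in WT and -2.06 in KO (mean -2.17 ± 0.29, SE; limma adjusted p = 0.0175). Cyp51, the lanosterol demethylase, was at -2.38, -3.10 and -1.14 in WT and -2.10, -2.75 and -1.18 in KO (M1 minus M2 -1.76 ± 0.18, SE; limma adjusted p = 0.011). No Cyp51 array of a state overlapped with those of another.

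Dhcr7, which reduces 7-dehydrocholesterol to cholesterol, had the lowest adjusted p of the 31 genes. Its log2 levels were 2.47, 1.49 and 3.88 in WT M0, M1 and M2 and 2.56, 1.11 and 3.79 in KO. The 3 states formed separate pairs of arrays, with WT and KO within 0.39 of each other in each. M1 minus M2 was -2.39 in WT and -2.69 in KO (mean -2.54 ± 0.19, SE; limma adjusted p = 0.00724), and the second probe gave -1.95 and -2.58. Fdft1, the squalene synthase, Lss, which closes the lanosterol ring, and Hsd17b7, a sterol reductase, also passed, with mean differences of -1.12, -1.36 and -0.87 (log2; limma adjusted p of 0.0494, 0.0211 and 0.0366).

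Other probes did not all agree for these genes. A second Fdft1 probe gave -0.34 in WT and 0.17 in KO, and the other 2 Lss probes gave -0.04 and -0.08 in WT and -0.37 and 0.02 in KO. These Lss probes had M1 above M0, by 0.62 and 0.75 in WT and by 0.35 and 0.59 in KO. So did a Cyp51 probe in KO, by 0.12, and an Hmgcs1 probe in WT, by 0.01. Across the list, 18 genes had more than 1 probe well above background on all arrays, and for 12 of them all such probes were lower in M1 than in M2 in both genotypes. Tm7sf2, a sterol reductase, missed the threshold at -0.91 in WT and -1.36 in KO (limma adjusted p = 0.057). Ebp, the sterol isomerase, was at -0.59 and -0.03, and Nsdhl, which takes part in removal of sterol methyl groups, at -0.23 and 0.02.

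**Figure D2:**
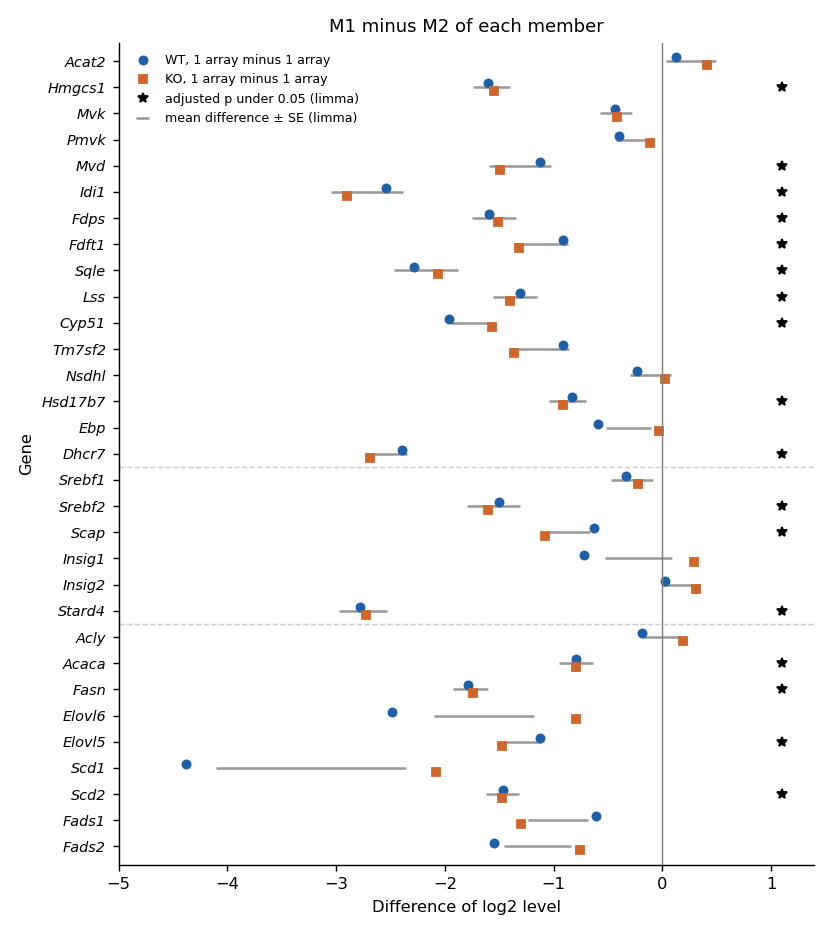
M1 minus M2 of the log2 level for each of the 31 genes, in WT (circles) and KO (squares), each 1 array minus 1 array; grey lines span the limma mean ± SE and stars mark an adjusted p under 0.05. Stars stand beside 17 genes, all to the left of 0, and Idi1, Sqle, Dhcr7, Stard4 and Scd1 (without a star) lie beyond -2 in both genotypes; the WT point of Scd1 uses an M1 array that was not well above background.

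In the sensing group, the regulator Srebf2, the transporter Stard4 and the escort Scap were lower in M1 than in M2, and Srebf1 did not pass. Srebf2, which encodes the main activator of cholesterol genes, had log2 levels of 3.08, 2.68 and 4.18 in WT M0, M1 and M2 and of 3.39, 2.29 and 3.89 in KO. By the probe used, M2 was highest and M1 lowest in both genotypes (M1 minus M2 -1.55 ± 0.24, SE; limma adjusted p = 0.0234). All 4 Srebf2 probes were lower in M1 than in M2 in both genotypes. For M1 minus M0 the other probes gave 0.56, 0.45 and -0.20 in WT and 0.01, -0.31 and -0.39 in KO. Srebf1, the regulator more closely tied to fatty acid genes, was at 3.38, 3.56 and 3.90 in WT and 3.53, 3.34 and 3.56 in KO, and its WT M1 and KO M2 arrays had the same level. Stard4, a cytosolic sterol carrier, was at -0.99, -2.32 and 0.46 in WT and -0.98, -2.86 and -0.13 in KO. By the probe used its states did not overlap, and M1 minus M2 was -2.78 in WT and -2.73 in KO (mean -2.75 ± 0.22, SE; limma adjusted p = 0.00767).

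Scap, the escort of both regulators, was low in M1 but not high in M2. Its log2 levels were 3.41, 2.54 and 3.17 in WT and 3.66, 2.63 and 3.71 in KO, with both M1 arrays under all others. It passed against M2 (-0.85 ± 0.19, SE; limma adjusted p = 0.0468) and against M0 (-0.95 ± 0.19, SE; limma adjusted p = 0.0371). Insig1 and Insig2, the retention proteins, did not pass, and M1 minus M2 of Insig1 was -0.72 in WT and 0.29 in KO.

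Among fatty acid enzymes Fasn, the synthase that assembles palmitate, had the lowest adjusted p for M1 against both M2 and M0. Fasn had log2 levels of 3.12, 1.62 and 3.41 in WT M0, M1 and M2 and of 3.16, 1.5 and 3.24 in KO, with both M1 arrays far below the 4 others, which lay within 0.29 of each other. It was lower in M1 than in M2 by -1.76 ± 0.16 (SE; limma adjusted p = 0.00884) and lower than in M0 by -1.58 ± 0.16 (SE; limma adjusted p = 0.0115). Elovl5, which lengthens polyunsaturated chains, was at 2.29, 1.54 and 2.67 in WT and 2.29, 1.15 and 2.62 in KO. Both M1 arrays were lowest, and the test passed against M2 (-1.30 ± 0.18, SE; limma adjusted p = 0.019) and M0 (-0.94 ± 0.18, SE; limma adjusted p = 0.0359).

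The desaturases divided. Scd2 stood out for its high M2 level, with log2 levels of 2.10, 2.38 and 3.84 in WT M0, M1 and M2 and of 1.94, 2.34 and 3.81 in KO. WT and KO were within 0.17 of each other in each state, and M0 and M1 lay close together. M1 minus M2 was -1.47 ± 0.15 (SE; limma adjusted p = 0.0112). Scd1, the sister enzyme that also makes monounsaturated fatty acids, was instead highest in WT M0, at -2.25, and stood at -2.62 in WT M2, -4.36 in KO M0, -5.81 in KO M1 and -3.73 in KO M2. In WT M1 it was not well above background, at least 17.8-fold below WT M0 and at least 13.8-fold below WT M2, where the bound uses the lowest signal well above background on that array. Of the adipocyte markers, 4 of 6 were well above background in each M2 array and 1 to 3 elsewhere. Their summed log2 level was -0.79 and -1.44 in WT and KO M2 and -3.72 to -2.85 elsewhere. Adipoq alone was at -1.28 and -2.37 in WT and KO M2 and at -7.65 to -6.98 elsewhere. Lep and Cfd were not well above background on any array. Scd1 is strongly expressed in liver and fat, and the part of these transcripts in its level was not tested.

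Acaca, the carboxylase that makes malonyl-CoA, passed for M1 against M2 (-0.79 in each genotype; limma adjusted p = 0.0359). Its next 2 probes gave -1.14 and -1.13 in WT and 0.38 and -0.28 in KO. Fads1, a front-end desaturase, missed against M2 (limma adjusted p = 0.0814) and passed against M0, as given next. Elovl6 and Fads2, a further elongase and desaturase, were lower in M1 than in M2 in both genotypes (Elovl6 by -2.48 in WT and -0.79 in KO, Fads2 by -1.55 and -0.76) without passing. Acly, which supplies cytosolic acetyl-CoA, differed by -0.19 in WT and 0.19 in KO.

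Over the 16 sterol enzymes the median of M1 minus M2 was -1.02 in WT and -1.38 in KO, and over the 9 fatty acid enzymes it was -1.47 and -1.30. Over all genes tested it was -0.27 and 0.03. The KO value compares arrays of 1 slide, whereas WT M1 and WT M2 lay on different slides. For differences between states, slide as a block equals the fit without WT M2, because only that array separates slide from genotype. The count of 17 depended on the spread, which rests on 2 residual degrees of freedom: it was 6 with slide as a block, 8 after normexp background correction, 4 without WT M0, 4 without KO M0, 6 without WT M2, 11 without KO M2, and 0 without WT M1 or without KO M1, where limma called 0 of all genes. Cycling cell markers, 5 of 5 well above background on all arrays, moved in the same comparison: their summed log2 level was 0.65 and 0.27 in WT and KO M1, 2.61 and 1.08 in M2, and 2.13 and 1.43 in M0. Neutrophil markers (7 in the files, 4 to 7 of them well above background) had summed log2 levels of 1.84 and 1.89 in WT and KO M1, 4.65 and 2.38 in M2, and 6.33 and 3.75 in M0. Stromal markers (5 to 6 of 6 well above background) were at 2.35 and 1.53 in M1. They were at 2.80 and 1.66 in M2, and at 3.70 and 2.15 in M0. Liver markers were at 1.72 and 2.21 in M1 and 5.30 and 4.43 in M2, where Trf alone was at 5.27 and 4.39. The median level over the liver list was -7.44 and -4.22 in M1 and -6.13 and -6.01 in M2. The part of these transcripts in the result was not tested.

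Each polarized state was next compared with unstimulated cells. Fewer genes of the list passed between M1 and M0 than between M1 and M2, and 3 of those that did were fatty acid enzymes. With limma, 6 of 31 genes were lower in M1 than in M0 and 0 were higher, against 14% and 11.6% of all genes, so the share of the list, 19.4%, was little above that of all genes. The 6 were Dhcr7, Scap, Stard4, Fasn, Elovl5 and Fads1, and because WT M0 and WT M1 lay on 1 slide and all KO arrays on the other, both differences are within a slide. The median over fatty acid enzymes was -0.83 in WT and -1.11 in KO, over sterol enzymes -0.20 and -0.66, and over all genes 0.02 and 0.06. With median scaling the WT value over sterol enzymes turned to 0.18, where that over all genes was 0.40.

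Dhcr7 fell by 0.98 in WT and by 1.45 in KO on the log2 scale (mean -1.21 ± 0.19, SE; limma adjusted p = 0.0242). Stard4 fell by 1.34 and by 1.88 (mean -1.61 ± 0.22, SE; limma adjusted p = 0.0193). The size for Stard4 rests on its probe, since the others gave 0.21 and -0.47 in WT and -0.43 and -0.38 in KO. Fads1 had log2 levels of 1.08, 0.25 and 0.86 in WT M0, M1 and M2 and of 0.90, -0.80 and 0.50 in KO. Its M1 arrays were lowest, and it fell by 0.83 in WT and by 1.70 in KO (mean -1.27 ± 0.28, SE; limma adjusted p = 0.0452). Elovl6 was lower in M1 by -2.19 and -1.11 without passing (limma adjusted p = 0.074). Nsdhl went the other way, with M1 above M0 by 0.91 in WT and 0.71 in KO (limma adjusted p = 0.0512), and 3 of its 4 probes gave positive values in both genotypes. The count of 6 was 0 without any of WT M0, KO M0, WT M1 or KO M1, again with 0 of all genes called, and it was 1 after normexp, 3 with no filter on dim probes, 11 when genes had to be well above background on all arrays and 14 with an intensity trend in the prior, 1 of the genes being higher in M1 in each of the last pair.

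Most sterol enzymes had higher values in M2 than in M0, but no gene of the list passed. Limma gave adjusted p under 0.05 for 0 of 31 genes in either direction, and for 0.0788% of all genes higher and 0.021% lower. At an unadjusted p under 0.05, 15 of 31 were higher and 0 lower, against 9.67% and 9.45% of all genes. By size, 13 of 31 were at least 1.5-fold higher in M2 in both genotypes, against 7.5% of all genes, and 10 of these were sterol enzymes: Hmgcs1, Mvd, Idi1, Fdps, Fdft1, Sqle, Cyp51, Nsdhl, Hsd17b7 and Dhcr7. At 2-fold only Idi1, Dhcr7 and Scd2 remained, 3 of 31 against 3.26% of all genes.

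The median of M2 minus M0 over sterol enzymes was 1.09 in WT and 0.73 in KO, over fatty acid enzymes 0.29 and 0.33, and over all genes 0.11 and 0.01. After normexp the KO value over fatty acid enzymes turned to -0.17, where that over all genes was -0.43. Scd2 came nearest to the threshold, with differences of 1.74 in WT and 1.88 in KO (limma adjusted p = 0.0624). It was the 1 member called after median scaling, after quantile normalization, in the authors' deposited table and when genes had to be well above background on all arrays, and an intensity trend in the prior called 9. The KO difference lies within a slide and the WT difference does not. Idi1 was higher by 2.06 in WT and 1.28 in KO, and Sqle by 1.74 and 0.79. Fads1 was the 1 member lower in M2 in both genotypes, by -0.23 and -0.40.

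**Figure D3:**
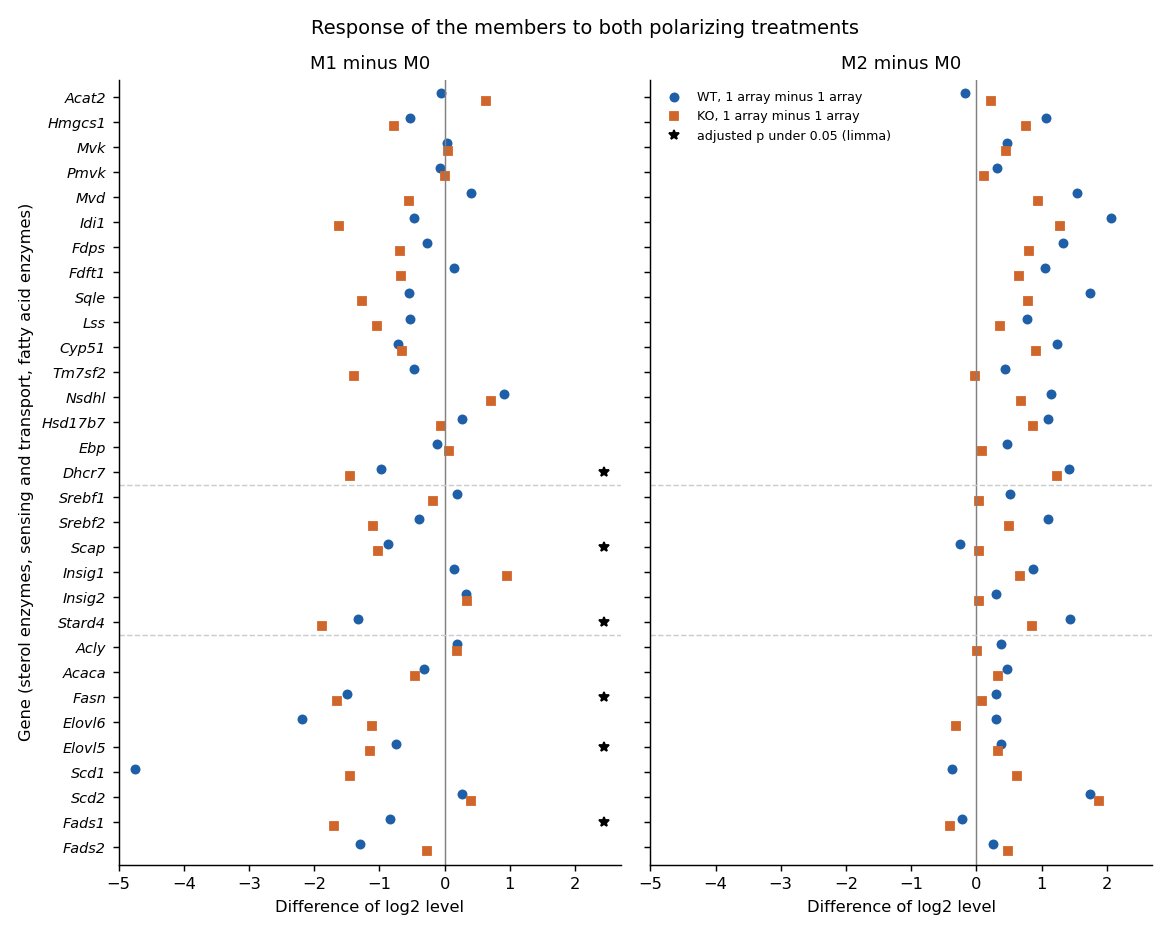
Difference of the log2 level from M0 in M1 (left) and M2 (right) for each gene, in WT (circles) and KO (squares), each 1 array minus 1 array; dashed lines part sterol enzymes, sensing and transport genes and fatty acid enzymes, and stars mark a limma adjusted p under 0.05. The 6 stars are all in M1, where fatty acid enzymes reach furthest left, while in M2 most sterol enzymes lie between 0 and 2 with WT right of KO; the WT point of Scd1 in M1 was not well above background.

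Other genes of the pathway were called in both directions. Of 40 further genes listed, 36 were tested, and limma called 7 lower and 10 higher in M1 than in M0, where 14% and 11.6% of all genes were. Against M2 it called 6 lower and 8 higher in M1, where 13.6% and 11.7% of all genes were. For M2 against M0 it called 0, with 3 higher and 5 lower at an unadjusted p under 0.05, where 9.67% and 9.45% of all genes were. Ch25h, which makes the oxysterol 25-hydroxycholesterol, known to hold back the processing of the sterol regulators, was among those that rose. Its log2 levels were -2.31, 2.25 and -1.20 in WT and -2.63, 3.38 and -1.46 in KO, with M1 above all other arrays (M1 minus M0 5.29 ± 0.44, SE; limma adjusted p = 0.00934).

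The last question was whether FoxO1 loss alters these genes. No member passed: limma called 0 of 31 and 0% of all genes in either direction, Foxo1 itself having an adjusted p = 0.304 at a mean difference of -2.78 ± 0.13 (SE). At an unadjusted p under 0.05, 2 of 31 were lower and 0 higher in KO, against 4.47% and 6.86% of all genes. They were Acaca, at -0.63, -0.77 and -0.77 in M0, M1 and M2 (KO minus WT, log2), and Mvk, at -0.42, -0.40 and -0.43. Acaca rests on its probe and scale: in M0 it was 0.45 after normexp, and with the mean of all its probes it was -0.16, 0.05 and -0.91. Mvk in M0 was 0.54 after normexp. The order of WT and KO varied by state for most genes, and 6 of 31 were lower in KO in all 3 states against 15.1% of all genes, while Scap was higher in all 3, where 22.1% of all genes were.

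Within M2, where both arrays lie on 1 slide, nearly all members had a lower value in KO. Each value is 1 array against 1 array and has no test. KO was lower for 16 of 16 sterol enzymes, 5 of 6 sensing and transport genes and 9 of 9 fatty acid enzymes, against 55% of all genes, and Scap was the exception. The median of KO minus WT in M2 was -0.30 over sterol enzymes, -0.24 over fatty acid enzymes and -0.05 over all genes. By the probe used, the largest gaps among sterol enzymes were -0.54 for Lss, -0.45 for Idi1 and -0.43 for Mvk and Fdps, all under 1.5-fold. The other 2 Lss probes gave 0.37 and 0.01, whereas second probes of Idi1, Mvk and Fdps gave -0.62, -0.24 and -0.16. Over other scalings, background corrections and probe choices the sterol count in M2 was 14 to 16 of 16. Markers of other cells had lower summed log2 levels in KO M2 than in WT M2 as well. They were 2.38 against 4.65 for neutrophil, 1.66 against 2.80 for stromal and 1.08 against 2.61 for cycling cell markers. The liver sum was 4.43 against 5.30, but Trf alone was at 4.39 against 5.27, and the liver median was -6.01 against -6.13. The adipocyte sum was -1.44 against -0.79, with Adipoq and Plin1 lower in KO and Cidec and Retn higher. The part of these transcripts was not tested.

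In M1, KO was lower for 12 of 16 sterol enzymes, against 37.6% of all genes, with Idi1 at -0.81, Mvd at -0.73 and Fdft1 at -0.70, the last with a second probe at 0.45. With median scaling the count in M1 was 15 of 16, against 63.6% of all genes. The sterol median of KO minus WT in M1 went from -0.30 to -0.62, and that over all genes from 0.13 to -0.19. In M0, KO was lower for 4 of 16, against 39.2% of all genes. Sqle was at 0.61 and Idi1 at 0.33, and Acat2 and Mvk were at -0.42. The median of KO minus WT in M0 was 0.10 over sterol enzymes and 0.11 over all genes. The M2 minus M0 difference was smaller in KO than in WT for 15 of 16 sterol enzymes and 26 of 31 genes, where 59.3% of all genes were. M0 and M1 compare arrays of different slides, and slide and genotype cannot be told apart there. The M0 value also draws on the array with liver transcripts, whose part was not tested.

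**Figure D4:**
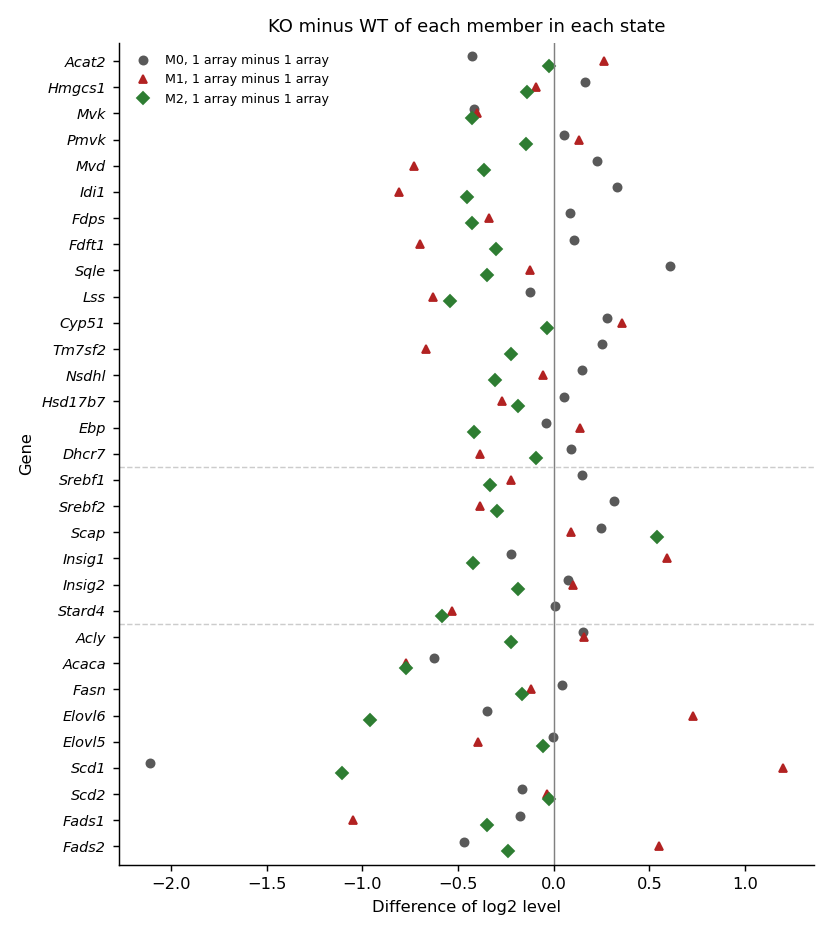
KO minus WT of the log2 level of each gene in M0 (circles), M1 (triangles) and M2 (diamonds), each 1 array minus 1 array with no error bar. Diamonds lie left of 0 for every gene except Scap, circles of the sterol enzymes lie mostly right of 0, and Scd1 has the widest spread, from -2.11 in M0 to 1.20 in M1, where its WT array was not well above background.

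The differences between states were then set side by side in WT and KO. Across the 31 genes the WT and KO values of M1 minus M2 had a Pearson r of 0.79, with 28 of the same sign (90.3%), and those of M2 minus M0 had an r of 0.80, with 26 of the same sign (83.9%). For M1 minus M0 r was 0.60, with 24 of the same sign (77.4%). Over all genes r was 0.78, 0.56 and 0.81, with 72.7%, 70.4% and 82.1% of the same sign. Genes are not independent replicates, so these are descriptions.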

How the data were processed

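The groups came from the labels. The authors deposited each array's scanner output, whose intensity values come from Agilent Feature Extraction 10.7.3.1 on array design 014868, per the file headers, and a table of log2 values that served as an alternative. In the scanner files the processed signal is background-subtracted and not scaled between arrays, per the file headers. Control and outlier spots (79 to 164 of 43379) were left out and spots of a probe averaged. The log2 signal minus the array's 75th percentile was used, with the probe of highest mean for each gene. Probe positions in the files are on mm9.

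With limma 3.58.1 (R 4.3.3), state and genotype were fitted additively to all 6 arrays (2 residual degrees of freedom, prior 1.88), with Benjamini-Hochberg adjustment over all 19044 genes. That residual holds both array noise and any genotype effect that varied by state, and p-values measure only this spread. Differences between 2 arrays have no test. The fit was tested on simulated data with planted M1 differences larger than those of most members, so smaller differences were not covered. The 31 genes were all named, and the 40 other pathway genes and the marker lists were fixed by name; members and lists were chosen with earlier results of these data known. Alternatives were median and quantile scaling, normexp (offset 50), the deposited table, filters on dim probes, the mean of all probes, an intensity trend, slide as a block, and each array left out. Some genes of the pathway are not reported here.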

Additional observations from a re-analysis of the deposited data

Results flagged for a closer look

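The WT and KO differences from M0 had opposite signs for 7 of 31 genes in M1 and for 5 in M2, and for 2 genes both sides were at least 1.25-fold. In neither of these was the difference between genotypes tested, since each side is 1 array minus 1 array. Mvd, the mevalonate diphosphate decarboxylase, was higher in M1 than in M0 in WT by 0.41 and lower in KO by -0.55 (log2), which leaves KO minus WT at -0.96. Scd1, the stearoyl-CoA desaturase, was lower in M2 than in M0 in WT by -0.37 and higher in KO by 0.63, which leaves KO minus WT at 1.00. After normexp background correction the KO difference of Scd1 was -1.21, so that both genotypes had the same direction.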

How the results depend on the processing

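Calls rest on 2 residual degrees of freedom and 1 array a group, which limits every p-value, and dim genes such as Scd1, Fads2 and Elovl6 are the least precise. No paired analysis was possible because each group has 1 array, so the replicate numbers pair no samples. Of the called genes, 137 of 255 gene and setting pairs for M1 against M2 kept their call and 118 did not, and 50 of 90 for M1 against M0 kept it and 40 did not; 0 changed direction. The causes of these changes were not tested, apart from fewer arrays in the fits that leave 1 out. Slide as a block and the fit without WT M2 count here as separate settings, though for differences between states they are the same fit.

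The count of members called for M1 against M2 (17) was 8 after normexp, 6 with slide as a block and 0 to 11 with 1 array left out. The count for M1 against M0 (6) was 1 after normexp, 3 with no filter on dim probes, 11 when genes had to be well above background on all arrays, 14 with an intensity trend and 0 to 7 with 1 array left out; of these, 1 was higher in M1 with median scaling, the strictest filter, the intensity trend, slide as a block, and without WT M2 or KO M2. For M2 against M0 it was 0, or 1 with median scaling, quantile normalization, the deposited table or the strictest filter on dim probes, and 9 with an intensity trend. KO against WT gave 0 throughout for members.

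Median scaling moved the median of all genes from -0.17 to 0.15 for M1 against M2 and from 0.03 to 0.26 for M1 against M0, and normexp moved the latter to -0.35. The median over sterol enzymes for M1 against M2 (-1.22) was -0.90 with median scaling and -1.49 to -0.90 with 1 array left out, and for M2 against M0 (0.92) it was 0.63 after normexp. The median over fatty acid enzymes for M1 against M2 (-1.30) was -0.97 with median scaling, -1.45 with quantile normalization, -0.76 after normexp, -1.47 in the deposited table, -1.09 with slide as a block and -1.5 to -1.09 with 1 array left out. For M1 against M0 (-0.94) it was -0.72 with median scaling. For M2 against M0 (0.19) it was 0.095 with median scaling, -0.15 after normexp, 0.27 with the strictest filter on dim probes, 0.13 with the mean of probes, 0.12 with slide as a block and 0.12 to 0.44 with 1 array left out. For KO against WT (-0.15) it was -0.26 to -0.10 with 1 array left out.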

Other observations

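Among the other listed genes of lipid metabolism, 5 are described here that were chosen after their values were seen; others did not pass, with a mean M1 minus M0 of 0.10 for the acyl-CoA synthetase Acsl4 and -0.32 for the acyltransferase Gpam. Acsl1, which couples long-chain fatty acids to coenzyme A, had log2 levels of 2.82, 6.86 and 2.43 in WT M0, M1 and M2 and of 2.85, 6.44 and 2.44 in KO, with both M1 arrays far above the rest. It rose in M1 against M0 by 3.82 ± 0.20 (log2, SE; limma adjusted p = 0.00678). Lpin1, a phosphatidate phosphatase on the way to triglyceride, had the opposite order, at 2.30, -1.72 and 2.56 in WT and 2.38, -1.31 and 2.67 in KO, and fell in M1 by 3.86 on the log2 scale (limma adjusted p = 0.00678). Acsl3, a relative of Acsl1 found on lipid droplets, was at 0.04, -2.00 and -0.92 in WT and 0.06, -2.09 and -1.42 in KO, lowest in M1 in both (M1 minus M0 -2.09; limma adjusted p = 0.011).

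Acss2 and Me1 rose in M1 against M0, while Acly, which also supplies acetyl-CoA, did not pass (limma adjusted p = 0.499). Acss2, which makes acetyl-CoA from acetate, had log2 levels of -1.72, -0.25 and -1.83 in WT M0, M1 and M2 and of -2.46, -0.86 and -2.86 in KO (M1 minus M0 1.53 ± 0.18, SE; limma adjusted p = 0.0149). Me1, the malic enzyme that yields NADPH, was at -2.42, -1.03 and -2.98 in WT and -2.31, -0.55 and -2.51 in KO (M1 minus M0 1.57 ± 0.18, SE; limma adjusted p = 0.0143). For both genes the M1 arrays lay above all other arrays of their genotype.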
